A study of Mus musculus with 2 samples.

Results

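Semaphorins, plexins, ephrins, Eph receptors, Slits, Robos, netrins and Unc5 receptors are the axon guidance ligands and receptors, and all features of these families in the deposited count tables were taken by gene symbol. The rule gave 69 features (67 symbols) of 28006. They comprised 20 semaphorins, 9 plexins, 8 ephrins, 14 Eph receptors, 3 Slits, 4 Robos, 7 netrin features and 4 Unc5 receptors. The rule used symbols and no measured value, but it was chosen with earlier results of these data known. These features were left out of the genes used to cluster the cells. Of the 69, 43 had at least 100 UMIs in each mouse, 16 lay between, and 10 had under 10 UMIs in both mice together (Plxnb3, Epha6, Epha8, Epha10, Sema3e, Sema5b, Slit1 and all 3 Ntn5 features).

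These proteins were named for steering growing axons, and most work by attraction or repulsion between cells in contact or at short range. Secreted class 3 semaphorins are read by plexins together with neuropilins, membrane semaphorins by plexins directly, ephrins by Eph receptors on the neighboring cell, Slits by Robos, and netrins by Dcc, neogenin and the Unc5 receptors. Outside the nervous system the same systems guide blood vessel sprouting, keep arterial and venous endothelium apart, and pass signals between osteoclasts and osteoblasts in bone.

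Single-cell transcriptomes were measured in 2 mice at postnatal day 28, 1 library per mouse, from cells of the femur shaft isolated by flow cytometry after enzymatic digestion. Both mice had the genotype Cxcl12(GFP/+); Cxcl12-iCreER; R26R(tdTomato/+) and received tamoxifen at postnatal day 21. One Cxcl12 allele carries GFP, the inducible recombinase is driven by Cxcl12 regulatory sequence, and the tdTomato reporter is switched on in cells where the recombinase acted and in their descendants. The labels give GFP+ cells as the sorted population in the cell and design fields but tdTomato+ cells in a protocol field, and the sort is taken here as GFP+. Both animals belonged to 1 group, so all comparisons were between cell classes within the same mice.

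The libraries held 54940400 UMIs (Mouse #1) and 88790688 UMIs (Mouse #2), and 2750 and 4582 cells were kept. A UMI is a tag that lets each captured transcript be counted once. Clusters were named from marker lists followed by "-like", which gave reticular-like (1203 and 2386 cells), preosteoblast-like (419 and 794), mature osteoblast-like (13 and 61), periosteal-like (79 and 239), arterial-type endothelial-like (123 and 110), sinusoidal-type endothelial-like (28 and 28) and hematopoietic cells (713 and 699, of which 368 and 328 were myeloid-like, 234 and 237 lymphoid-like and 111 and 134 erythroid-like). The remaining 172 and 265 cells stayed unnamed, among them a cycling cluster. Kept cells of the libraries shared 7 barcodes. The label of marrow mesenchymal cells held for the largest class, where Cxcl12 stood at 8939 and 9022 UMIs per 1000000 UMIs and Ptprc, the pan-leukocyte marker, at 0.799 and 0.232. It did not hold for the hematopoietic cells, where Ptprc stood at 239 and 208. The libraries differed in Rgs5, a pericyte marker, which in arterial-type cells was 247 and 7.25 and in periosteal-like cells 158 and 1.4.

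Levels are UMIs of a gene per 1000000 UMIs of the class (CPM), summed over the cells of 1 mouse, and pairs of values are given as Mouse #1 and Mouse #2. They compare 1 gene between classes and not different genes. P-values below set class differences against the spread between the 2 mice, moderated over all tested genes, for classes built from the same cells. Unless a block is named, the fit ignores the pairing by mouse. In edgeR, SE is the absolute log2 fold change divided by the square root of the F statistic. Intervals cover counting error only, and the comparisons with reticular-like cells share those sums. Of the members, 13 share exon bases with a counted gene on the opposite strand (among those named below Efna3, Efna4, Unc5a, Unc5c, Ephb1, Ephb4, Plxna1, Plxna4 and Plxnb1), and the strand setting of the counting is not given in the sources used here. Genes absent from the count tables overlap Sema4c on the opposite strand, and Sema4a, Plxnc1 and Ntng2 on the same strand. Among the 43 members with at least 100 UMIs per mouse, the highest class was the same in both mice for 33, and for 30 members both mice of that class lay above both mice of every other class. These 30 comprised 9 with the sinusoidal-type cells highest (Epha2, Plxna4, Plxnd1, Robo4, Sema3a, Sema4c, Sema6a, Sema6b and Sema6d) and 7 with the arterial-type cells highest (Efna1, Efnb2, Epha4, Ntn4, Sema3f, Sema3g and Unc5b). A further 5 peaked in periosteal-like cells (Epha3, Ephb2, Ephb3, Ntn1 and Slit2), 3 in preosteoblast-like cells (Efna4, Plxna2 and Plxnb2), 3 in mature osteoblast-like cells (Robo2, Sema3d and Sema4d), 2 in myeloid-like cells (Plxnc1 and Sema4a) and 1 in lymphoid-like cells (Sema4b). No member with separated levels peaked in the reticular-like or the erythroid-like cells. These are peaks of whole classes, which pool clusters. Plxnb2 and Sema4d stood higher in single hematopoietic clusters, described below, than in the class named here. These counts were made for the members only. The same shares over all genes were not computed, so whether the members differ from other genes here was not tested.

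**Figure D1:**
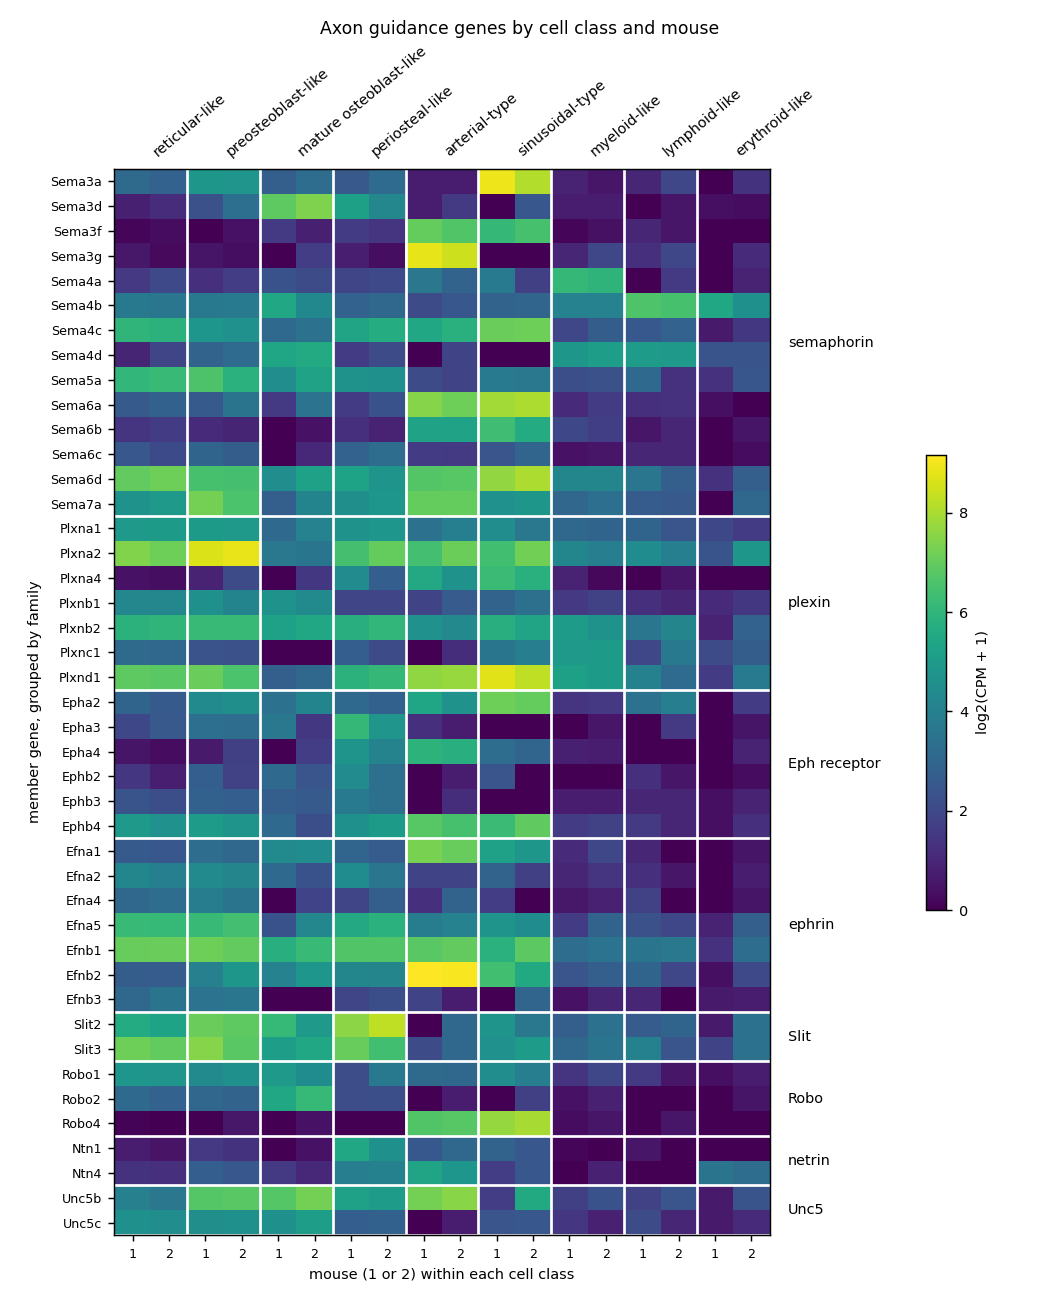
Levels of the 43 members with at least 100 UMIs in each mouse, as log2(CPM + 1), by cell class (columns, Mouse #1 and Mouse #2 side by side) and by family (rows). Among the brightest cells are Efnb2 and Sema3g in the arterial-type columns, Sema3a in the sinusoidal-type columns and Plxna2 in the preosteoblast-like columns. The right-hand blood cell columns are dark for most members, and Sema4a, Sema4b, Sema4d, Plxnc1 and Plxnd1 are among the exceptions.

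The first comparison asked how guidance genes differ between reticular-like cells, the adipocyte-marker-rich stroma that expresses the most Cxcl12, and preosteoblast-like cells, which lie closer to bone formation. Of 48 members tested, 20 passed an adjusted p of 0.05 in the quasi-likelihood test of edgeR with Benjamini-Hochberg adjustment, against 29.1% of all 12947 genes tested. The members higher in preosteoblast-like cells numbered 17 (14.1% of all genes passed in that direction) and those higher in reticular-like cells 3 (15% of all genes). The median log2 fold change of reticular-like over preosteoblast-like cells was -0.33 over the tested members and -0.01 over all genes. In each of the 20, both mice moved in the same direction.

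Unc5b, a netrin receptor of the repulsive class (chromosome 10, 60762593 to 60831581, GRCm38, minus strand), had the lowest adjusted p of the members. It stood at 14.8 and 11.3 CPM in reticular-like cells and at 107 and 112 CPM in preosteoblast-like cells, with no overlap. The log2 fold change of reticular-like over preosteoblast-like cells was -3.02 ± 0.15 (SE, n = 2 mice, adjusted p = 0.000262 in edgeR), and the pooled level was 8.8-fold (95% interval 8.03 to 9.65) higher in preosteoblast-like cells. After each cell was thinned to 2000 UMIs, 19.6% and 19.2% of preosteoblast-like cells had a Unc5b UMI, against 3.74% and 2.14% of reticular-like and 0.14% and 0.574% of hematopoietic cells, the background. Median depths before thinning were 15270 and 16270.5, 12591 and 11706, and 12995 and 10642 UMIs. Unc5c, the related receptor, stood at 23.1 and 21.2 against 22 and 23.5 CPM in the same classes and did not pass (log2 fold change 0.02 ± 0.11, adjusted p = 0.915 in edgeR).

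All 3 members of the netrin family tested were also higher in preosteoblast-like cells, at low levels. Ntn4, a laminin-like netrin of basement membranes, was 1.54 and 1.43 against 5.67 and 4.67 CPM (log2 fold change -1.73 ± 0.25, adjusted p = 0.00597 in edgeR). Ntn1 was 0.676 and 0.398 against 1.84 and 1.53 CPM and Ntng1, a membrane-anchored netrin that does not bind Unc5 receptors, 0.0615 and 0.199 against 1.27 and 7.46. The Ntng1 difference (-4.87 ± 0.98, adjusted p = 0.0165 in edgeR) rested on 9 and 107 UMIs in preosteoblast-like cells, mostly those of Mouse #2. For Ntn1 the adjusted p was 0.15 by the Wald test of DESeq2.

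Among the semaphorins, 4 of the 14 tested were higher in preosteoblast-like cells and 2 in reticular-like cells. Sema7a, a membrane semaphorin that signals through plexin C1 and integrins, was 25.3 and 29.9 CPM in reticular-like and 152 and 94.3 in preosteoblast-like cells (-2.08 ± 0.23, adjusted p = 0.0023 in edgeR). Sema3a, a secreted repellent with a known bone-protective role, was 7.99 and 6.43 against 27.8 and 26.2 (-1.85 ± 0.14, adjusted p = 0.000874 in edgeR). Both genes thus differed by more than the spread between the mice. Sema3d, another secreted class 3 semaphorin, was 0.738 and 1.23 against 3.82 and 9.14 (-2.65 ± 0.49), and Sema4d, known as an osteoclast-derived inhibitor of osteoblasts, was 0.922 and 2.78 against 6.52 and 8.23 (-1.86 ± 0.46). The direction turned for Sema4c (chromosome 1, 36548639 to 36558349, minus strand), a ligand of plexin B2. It was 62.7 and 58.7 CPM in reticular-like against 27.2 and 24.1 in preosteoblast-like cells (1.31 ± 0.10, adjusted p = 0.000889 in edgeR). Sema6d, a transmembrane ligand of plexin A1, was 122 and 139 against 90.5 and 88.2 (0.61 ± 0.10, adjusted p = 0.00825 in edgeR).

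Of 8 plexins tested, Plxna2, Plxna3 and Plxna4 were higher in preosteoblast-like cells and Plxnc1 in reticular-like cells. The Plxna4 difference rested on 6 and 47 UMIs in preosteoblast-like cells (0.85 and 3.28 CPM), mostly those of Mouse #2. Reticular-like cells held 14 Plxna4 UMIs over both mice. Plxna2, which serves class 3 and class 6 semaphorins, was 171 and 141 CPM in reticular-like and 412 and 465 in preosteoblast-like cells (-1.43 ± 0.14, adjusted p = 0.00167 in edgeR), with 26.6% and 21.5% against 55.1% and 58% of cells holding a UMI at equal depth. Hematopoietic cells held one in 1.97% and 2.58%. Plxnc1, a receptor for Sema7a, ran the other way from its ligand, with 7.93 and 7.56 against 4.11 and 3.84 CPM (1.03 ± 0.18, adjusted p = 0.011 in edgeR). Plxna1, Plxnb1, Plxnb2 and Plxnd1 did not pass, and for Plxnd1 the levels were 117 and 111 against 134 and 95 CPM (0.07 ± 0.16).

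On the ephrin side 3 of 8 ephrins (Efna1, Efna3 and Efnb2) and 2 of 8 Eph receptors (Epha2 and Epha3) were higher in preosteoblast-like cells, and none was higher in reticular-like cells. Efnb2, a transmembrane ephrin best known from arterial endothelium, was 5.53 and 5.37 CPM in reticular-like and 14.9 and 27.9 in preosteoblast-like cells (-1.94 ± 0.31, adjusted p = 0.00748 in edgeR). In the barcodes of 1 to 100 UMIs, which hold free RNA, Efnb2 was 23.1 and 23.9, above the preosteoblast-like level of Mouse #1 and below that of Mouse #2, and its part in the difference was not tested. The endothelial marker Cdh5 was 0.369 and 0.564 CPM in reticular-like against 0.142 and 1.32 in preosteoblast-like cells, in opposite directions in the mice. Whether endothelial transcripts had a part in the Efnb2 difference was not tested. Epha2, which binds A-type ephrins, was 6.7 and 5.04 against 19.7 and 22.8 CPM (-1.82 ± 0.19, adjusted p = 0.00194 in edgeR). Efnb1, a B-type ephrin with a known role in bone formation, was 129 and 134 against 140.4 and 125 CPM (0.05 ± 0.09, adjusted p = 0.741), and Ephb4, a receptor for Efnb2, was 29.1 and 23.7 against 31.6 and 25.6 (-0.04 ± 0.15, adjusted p = 0.86 in edgeR).

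Slit2, a secreted repellent read by Robos (chromosome 5, 47983138 to 48307733, plus strand), was 48.9 and 39.2 CPM in reticular-like and 134 and 117 in preosteoblast-like cells (-1.45 ± 0.13, adjusted p = 0.0013 in edgeR). Its paralog Slit3 was 140.0 and 125 against 180.0 and 113 (-0.08 ± 0.21, adjusted p = 0.819), and the mice disagreed on its direction. The receptors Robo1 (27.4 and 26.7 against 19.7 and 23.1 CPM) and Robo2 (7.75 and 6.3 against 7.08 and 6.49) did not reach the threshold. Blocking on the animal gave 23 members instead of 20, adding Robo1 (adjusted p = 0.0375), Epha7 (0.0155) and Ephb2 (0.00355), which are named after their values were seen. The share of all genes with the block is not given for this comparison. Of the called members, Efna3 and Efna1 missed the threshold by DESeq2 (adjusted p = 0.134 and 0.188), and Plxna3, Epha3, Efna1 and Sema6d missed it when all classes shared 1 fit (0.0745, 0.181, 0.138 and 0.0761).

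Other markers differed between these classes too. The 8 mature osteoblast markers summed to 145 and 177 CPM in reticular-like and 431 and 586 in preosteoblast-like cells, with at most 1 of the 8 at 0 in a mouse, and the 8 mural markers to 245 and 298 against 497 and 485, also with at most 1 at 0. The 7 chondrocyte markers found summed to 8.67 and 6.0 against 38.5 and 29.9, with 2 to 5 at 0, and the 8 erythroid markers, none at 0, to 526 and 1007 against 1399 and 162, in opposite directions in the mice. Their part in the differences was not tested. The 8 endothelial markers summed to 15.7 and 20.9 against 11.2 and 15.3, against 6531 and 5925 in arterial-type cells. Without the reticular-like cluster high in Fos and heat shock genes 21 members passed, and with the cycling cluster counted as preosteoblast-like 23 did, an alternative chosen after seeing the data. Shares of all genes under these settings are not given.

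**Figure D2:**
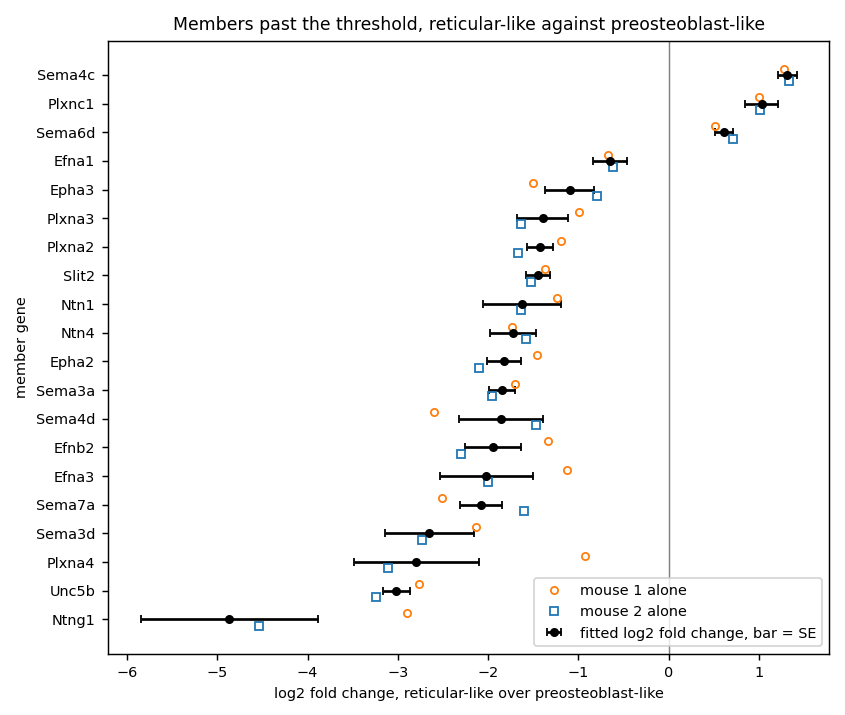
Log2 fold change of reticular-like over preosteoblast-like cells for the 20 members that passed. Black points and bars are the fitted value and its SE, open symbols the log2 ratio in each mouse alone. Only Sema4c, Plxnc1 and Sema6d lie right of 0, and for Plxna4 the mice lie far apart (-0.93 and -3.10).

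Co-receptors and intracellular transducers of these pathways were listed as 42 genes. Of these 36 were tested, 15 did not pass and 21 passed, against 29.1% of all genes (7 higher in reticular-like cells, 14 higher in preosteoblast-like cells), with a median log2 fold change of -0.23, against -0.01 for all genes. Ngef, a partner of EphA receptors, had 3 UMIs in reticular-like and 266 in preosteoblast-like cells over both mice, a ratio of 192-fold (95% interval 65.1 to 939). Fyn, a kinase used by several guidance receptors, was 4.0 and 5.17 against 30.7 and 44 CPM (-2.95 ± 0.23), and Mical2, an oxidoreductase of the family that acts on actin below plexins, was 4.06 and 3.41 against 37.7 and 42.3 (-3.38 ± 0.14). Flrt1, an Unc5 ligand, was 0.0615 and 0.0994 against 1.84 and 4.95 (-5.21 ± 0.72). The adjusted p-values of these 4 genes ran from 0.000239 (Mical2) to 0.00484 (Flrt1) in edgeR. Among the genes with separated levels, the neuropilin Nrp1 was 715 and 698 CPM in reticular-like and 249 and 217 in preosteoblast-like cells (1.67 ± 0.11, adjusted p = 0.000608 in edgeR), a co-receptor named after its values were seen.

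The mature osteoblast-like cells, which carry the osteocalcin and bone matrix genes, were too few for a planned comparison (13 and 61 cells, 512529 and 2742824 UMIs), and their levels are a description. Sema3d reached 119 and 166 CPM there, against 3.82 and 9.14 in preosteoblast-like and 0.738 and 1.23 in reticular-like cells, so it stood lowest in the stroma richest in Cxcl12 and highest in the matrix-producing cells. At equal depth 23.1% and 32.8% of mature osteoblast-like cells held a Sema3d UMI and at most 0.143% of hematopoietic cells did. Sema3b, also a secreted class 3 semaphorin, was 56.6 and 53.6 CPM in mature osteoblast-like cells and at most 1.43 in reticular-like and preosteoblast-like cells. Robo2 was 42.9 and 70.4 and Sema4d 41 and 48.1. Unc5b was 107 and 151 CPM, at or above its preosteoblast-like level in each mouse. Plxna2, the plexin that was highest in preosteoblast-like cells, was 11.7 and 10.9 CPM in mature osteoblast-like cells, the lowest of the stromal classes in both mice. Sema4c (7.8 and 9.84), Plxnd1 (5.85 and 7.66) and Efna5 (3.9 and 17.9) were also below the other stromal classes.

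**Figure D3:**
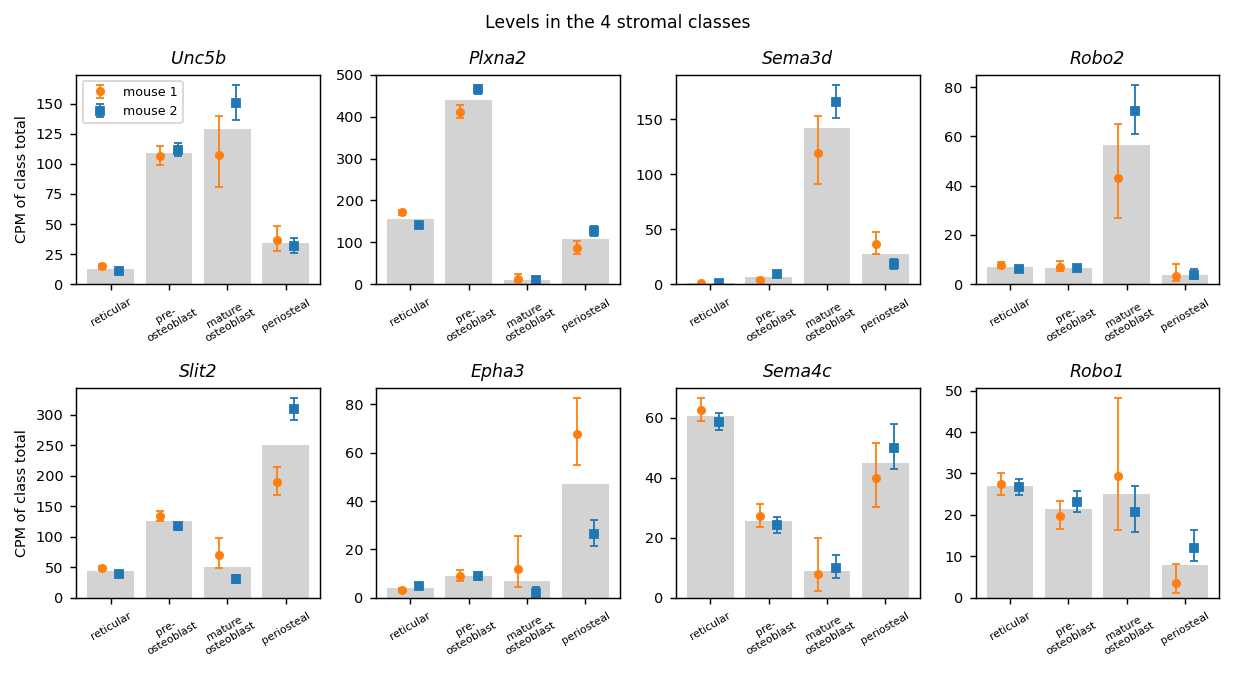
CPM of 8 members in the 4 stromal classes. Grey bars are the mean of 2 mice, orange circles Mouse #1 and blue squares Mouse #2, and vertical lines exact 95% Poisson intervals that cover counting error only. Unc5b is high in both preosteoblast-like and mature osteoblast-like cells, Plxna2 in preosteoblast-like cells, Sema3d and Robo2 in mature osteoblast-like cells, and Slit2 and Epha3 in periosteal-like cells, where the mice differ for both.

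Periosteal-like cells, fibroblast-like cells of the outer bone surface by their markers, were compared with reticular-like cells. Of 49 members tested 23 passed in edgeR (22.5% of all genes did), 16 of them higher in periosteal-like cells (12.9% of all genes) and 7 lower (9.6% of all genes were higher in reticular-like cells). The median log2 fold change was 0.07 for the members and -0.01 for all genes. Of the 16 semaphorins tested 4 rose, Sema3b, Sema3c, Sema3d and Sema3f, 2 fell and 10 did not pass. Sema3f rested on 9 UMIs in periosteal-like and 9 in reticular-like cells over both mice (pooled 1.80 against 0.194 CPM). Sema3c was 0.123 and 0.431 CPM in reticular-like and 25.9 and 21.3 in periosteal-like cells, a pooled ratio of 70.05-fold (95% interval 40.7 to 129) and a log2 fold change of 6.23 ± 0.42 (adjusted p = 0.000275 in edgeR). Sema3d rose from 0.738 and 1.23 to 36.4 and 18 CPM (4.70 ± 0.44) and Sema3b from 1.11 and 1.43 to 10.5 and 7.29 (2.79 ± 0.37). Sema3a did not pass, with 7.99 and 6.43 against 4.9 and 8.14 CPM.

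Ntn1, the best studied secreted netrin, was 43.4 and 23 CPM in periosteal-like cells, against 0.676 and 0.398 in reticular-like and 1.84 and 1.53 in preosteoblast-like cells (6.01 ± 0.44, adjusted p = 0.000366 in edgeR). Its levels in the endothelial-like classes were 4.68 and 7.25 (arterial-type) and 6.51 and 4.66 (sinusoidal-type). Of 8 Eph receptors tested 5 rose and none fell. Epha3 rose from 2.95 and 4.84 to 67.8 and 26.4 CPM (3.5 ± 0.48), Epha4, which binds ephrins of both classes, from 0.43 and 0.232 to 25.9 and 16 (6.06 ± 0.44), and Ephb2 from 1.72 and 0.696 to 20.3 and 9.54 (3.68 ± 0.57). All 3 were higher in the periosteal-like cells of both mice than in the reticular-like cells of either, and higher in Mouse #1. Slit2 was 190.2 and 309 CPM in periosteal-like cells, where it was higher than in any other class (2.60 ± 0.24, adjusted p = 0.000827 in edgeR), and 30.4% and 42.4% of cells held a UMI at equal depth against 0.702% and 1.58% of hematopoietic cells.

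Its receptor Robo1 fell, from 27.4 and 26.7 to 3.5 and 12.1 CPM (-1.47 ± 0.33, adjusted p = 0.0229 in edgeR), as did Plxnb1, a receptor for Sema4d, from 17.8 and 18.2 to 2.8 and 2.81 (-2.60 ± 0.23, adjusted p = 0.000813 in edgeR). Sema5a, Sema6d, Unc5c, Efnb3 and Plxnd1 were the other members that fell. Plxna4 rose (0.369 and 0.265 to 20.3 and 5.61 CPM, 5.27 ± 0.74), more in Mouse #1. The 8 mural markers summed to 462 and 310.0 CPM in periosteal-like cells, with at most 1 at 0 in a mouse, against 245 and 298 in reticular-like cells, and the 8 preosteoblast markers to 14160.5 and 13818 against 2427 and 3567, with none at 0. The 8 erythroid markers, up to 3 of them at 0, summed to 177 and 186 against 526 and 1007. Their part in these values was not tested. With the mouse as a block Ephb6 lost its call (adjusted p = 0.0647) and Sema6c gained one (0.042). Of the listed pathway genes 16 of 32 passed (22.5% of all genes did), 11 higher in periosteal-like cells (12.9% of all genes). Among them Flrt2, a membrane ligand of Unc5 receptors, rose from 59.8 and 58.5 to 259 and 348 CPM (2.44 ± 0.15), Tiam1 from 0.246 and 0.133 to 2.8 and 3.65 (4.26 ± 0.61), Mical2 by 3.25 ± 0.18 and Fyn by 1.95 ± 0.24 on the log2 scale.

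Endothelial-like cells, arterial-type and sinusoidal-type together, were compared with reticular-like cells to ask which members are higher in vessels and which in stroma. Of 49 members tested 39 passed in edgeR, against 49.8% of all genes. Higher in endothelial-like cells were 20 (25.2% of all genes) and higher in reticular-like cells 19 (24.6% of all genes), with a median log2 fold change of -0.31 for the members and -0.04 for all genes. All 7 Eph receptors tested passed (4 higher, 3 lower). Robo4, an endothelial Robo that stabilizes vessels, had 1 UMI in all reticular-like cells and 520 in endothelial-like cells, at 127 and 139.7 CPM in the latter. The pooled ratio was 6187-fold (95% interval 1106 to 244822). The other Robos ran the opposite way: Robo1 was 11.2 and 8.73 CPM in endothelial-like and 27.4 and 26.7 in reticular-like cells (-1.49 ± 0.18), and Robo2 0 and 1.03 against 7.75 and 6.3 (-3.80 ± 0.70).

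Both Slits were stromal. Slit2 was 6.13 and 8.22 CPM in endothelial-like cells (-2.67 ± 0.23) and Slit3 8.18 and 12.8 (-3.71 ± 0.20, adjusted p = 3.36e-05 in edgeR), in each case below both reticular-like values. Sema3f, a secreted ligand of neuropilin 2, was 114 and 99.1 CPM in endothelial-like and 0.123 and 0.232 in reticular-like cells (8.98 ± 0.22, adjusted p = 2.51e-06 in edgeR). The transmembrane semaphorins Sema6a (193 and 167 against 5.04 and 6.23 CPM, 4.92 ± 0.16) and Sema6b (47.5 and 40.1 against 1.66 and 1.99, 4.5 ± 0.20) were endothelial too, while Sema6d was 128 and 143 against 122 and 139 and did not pass (-0.00 ± 0.12). Sema5a, with 5.62 and 4.62 against 66.9 and 73.5 CPM (-3.83 ± 0.19), and Unc5c, with 1.02 and 1.54 against 23.1 and 21.2 (-4.16 ± 0.30), lay on the stromal side. Sema3b had no UMI in endothelial-like cells, which makes it at least 1.71-fold higher in reticular-like cells against a floor of 3 UMIs over both mice.

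With the mouse as a block Efnb1, Plxna2 and Efna4 passed as well (adjusted p = 0.0414, 0.0139 and 0.0197), all lower in endothelial-like cells. In 1 fit over all classes, the endothelial-like value was an equal-weight mean of arterial-type and sinusoidal-type log levels, not a pooled level. For this different quantity Sema3g (log2 fold change 3.23) and Sema3b lost their calls (adjusted p = 0.99995 and 0.0824 in edgeR). Sema3b also lost its call by DESeq2 (adjusted p = 0.104). The myeloid markers summed to 4189 and 4145 CPM in endothelial-like and 214 and 203 in reticular-like cells, and the erythroid markers to 163 and 114 against 526 and 1007, and their part in the differences was not tested. Of the pathway genes 26 of 34 passed (49.8% of all genes did), 14 higher in endothelial-like cells (25.2% of all genes). Fyn was at 179.9 and 182 CPM in endothelial-like cells (5.22 ± 0.16) and Met, a plexin B partner, at 26.6 and 23.1 (7.94 ± 0.48). Crmp1, a cytosolic mediator of semaphorin signaling, had no UMI in reticular-like cells and 15 in endothelial-like cells, at least 59.5-fold more.

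Arterial-type and sinusoidal-type cells were then compared with each other. Among those that differed were Sema3g, Efnb2 and Unc5b, higher in arterial-type cells, and Sema3a and Epha2, higher in sinusoidal-type cells. Of 29 members tested 18 passed in edgeR, against 21.3% of all genes. Higher in arterial-type cells were 8 (9.35% of all genes) and higher in sinusoidal-type cells 10 (11.9% of all genes), and the median log2 fold change of arterial-type over sinusoidal-type cells was -0.77 for the members and 0.02 for all genes. A pair of secreted class 3 semaphorins showed opposite patterns, and the 250 bases before their RefSeq start sites are printed to place them (GRCm38.p6, plus strand, with the Runx core TGTGGT in capitals where it occurs on either strand). The Sema3a window is chr5:13396534-13396783, at a start inside the gene's GENCODE span of 13125414 to 13602565, and the Sema3g window is chr14:31217623-31217872.
Sema3a: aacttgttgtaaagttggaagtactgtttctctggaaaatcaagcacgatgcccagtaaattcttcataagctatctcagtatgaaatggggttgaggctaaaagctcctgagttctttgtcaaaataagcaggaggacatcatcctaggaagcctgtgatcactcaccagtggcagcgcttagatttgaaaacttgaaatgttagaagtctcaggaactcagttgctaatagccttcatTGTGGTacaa
Sema3g: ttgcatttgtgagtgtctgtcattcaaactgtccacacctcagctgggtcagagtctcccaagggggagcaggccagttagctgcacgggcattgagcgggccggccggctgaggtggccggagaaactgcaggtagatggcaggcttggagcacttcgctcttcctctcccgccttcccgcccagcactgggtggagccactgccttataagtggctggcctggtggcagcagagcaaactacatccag
The Sema3a window held TGTGGT 10 bases before the start and the Sema3g window did not hold it. Over all 32851 promoters of this length 14.0% held these letters, as did 4 of 19 promoters (21.1%) of the members higher in preosteoblast-like cells that matched by symbol (15 of 17), those of Sema3a, Sema4d, Efna3 and Plxna3. It was 1 of 5 promoters (20%) for the members higher in reticular-like cells and 9 of 74 (12.2%) for all members matched. The matches are a description of letters and not binding sites.

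Sema3g stood at 455 and 354 CPM in arterial-type cells and had no UMI in the sinusoidal-type cells of either mouse, at least 119.9-fold higher in arterial-type cells against a floor of 3 UMIs over both mice (adjusted p = 8.53e-05 in edgeR). At equal depth 59.3% and 52.7% of arterial-type cells held a UMI and 0.421% and 0.574% of hematopoietic cells. Sema3a was the reverse. It stood at 488 and 278 CPM in sinusoidal-type cells, higher than in any other class, and at 0.669 and 0.659 in arterial-type cells, where only 2 UMIs were found. The pooled ratio was 582-fold (95% interval 160.0 to 4827) and the adjusted p 5.07e-05 in edgeR, and 50.00% and 39.3% of sinusoidal-type cells held a UMI at equal depth. The mice differed in the size of Sema3a in sinusoidal-type cells, each with 28 such cells, but not in the direction.

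Efnb2, the arterial ephrin (chromosome 8, 8617434 to 8661242, minus strand), was 573 and 543 CPM in arterial-type and 82.4 and 46.6 in sinusoidal-type cells (2.99 ± 0.24, adjusted p = 0.000221 in edgeR). Its receptor Ephb4, which marks veins during development, did not separate the classes here, with 109.7 and 90.3 against 75.9 and 121 CPM (-0.10 ± 0.27, adjusted p = 0.843 in edgeR). Among the A-type genes, Efna1 was 159 and 129 against 36.9 and 28 (2.02 ± 0.25, adjusted p = 0.00149), Epha4 59.5 and 52.7 against 8.67 and 7.0 (2.70 ± 0.36, adjusted p = 0.0020 in edgeR), and Epha2 lay on the sinusoidal side at 40.8 and 25 against 141 and 126 (-2.13 ± 0.27, adjusted p = 0.00154 in edgeR). Ephb1 had 49 UMIs in arterial-type and 1 in sinusoidal-type cells, a ratio of 14.5-fold (95% interval 2.48 to 583).

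Sema7a was 128 and 127 CPM in arterial-type and 23.9 and 28 in sinusoidal-type cells (2.18 ± 0.25, adjusted p = 0.000941 in edgeR). Ntn4 was 39.5 and 27 against 2.17 and 4.66 (3.14 ± 0.58), with 3 UMIs in sinusoidal-type cells. Unc5b, known from arterial endothelium and tip cells, was 151 and 186 CPM in arterial-type cells, but 2.17 and 46.6 in sinusoidal-type cells, so that the log2 ratio was 5.12 in Mouse #1 and 1.80 in Mouse #2 (fitted 2.70 ± 0.63, adjusted p = 0.0215 in edgeR). On the sinusoidal side, Sema4c (132 and 139.9 CPM against 42.8 and 55.3), Sema6d (206 and 264 against 104 and 109), Plxnd1, the receptor for Sema3e (429 and 312 against 197 and 212), and Robo4 (208 and 249.5 against 102 and 109) passed as well. In each of these 4 both sinusoidal-type values exceeded both arterial-type values.

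Slit3 (23.9 and 32.6 CPM in sinusoidal-type against 3.34 and 7.25 in arterial-type cells, -2.50 ± 0.50) and Sema5a (13 and 11.7 against 3.34 and 2.64, -2.12 ± 0.58) were higher in sinusoidal-type cells, from 25 and 11 UMIs. The 8 reticular markers summed to 1849.7 and 3435 CPM in sinusoidal-type and 465 and 602 in arterial-type cells and the 8 preosteoblast markers to 4196 and 3864 against 191 and 717, none of either list at 0. The 7 myeloid markers found in the table summed to 5416 and 5280.2 in arterial-type and 210.3 and 128 in sinusoidal-type cells, with at most 2 at 0. Their part in the member differences was not tested. With the mouse as a block Sema6b, Plxna4 and Slit2 also passed (adjusted p = 0.0357, 0.0134 and 0.0248), all higher in sinusoidal-type cells. Ephb1, Unc5b and Sema5a missed the threshold by DESeq2 (adjusted p = 0.22, 0.423 and 0.371). Without the filter on low counts only 7 of 56 members passed, and the share of all genes without it is not given.

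**Figure D4:**
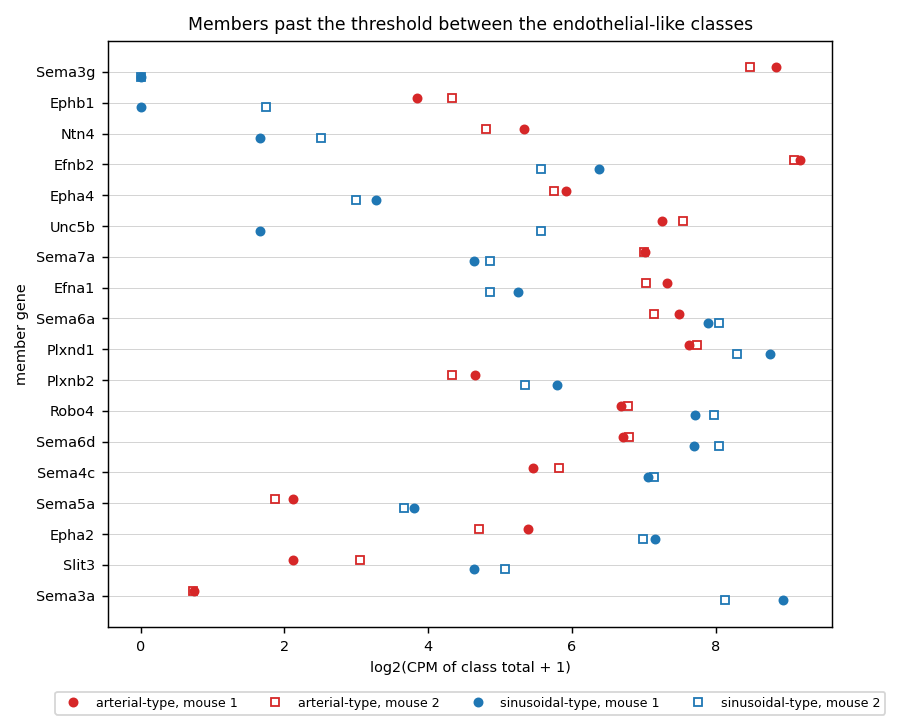
Levels of the 18 members that passed between arterial-type (red) and sinusoidal-type (blue) endothelial-like cells, as log2(CPM + 1), with Mouse #1 filled and Mouse #2 open. Sema3g at the top and Sema3a at the bottom are at or near 0 in 1 class, and the sinusoidal-type Unc5b values of the mice lie far apart (2.17 and 46.6 CPM).

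Of the pathway genes 13 of 26 passed between the endothelial-like classes, against 21.3% of all genes. The neuropilins, co-receptors that hold class 3 semaphorins and VEGF, split. Nrp2 was 432 and 494 CPM in sinusoidal-type and 105 and 132 in arterial-type cells (-2.09 ± 0.20, adjusted p = 0.000439 in edgeR), while Nrp1, named after its values were seen, was 479 and 567 against 861 and 904 (0.63 ± 0.17, adjusted p = 0.0373 in edgeR). Flrt3, an Unc5 and Robo partner, had 2 UMIs in arterial-type and 23 in sinusoidal-type cells, a ratio of 38.9-fold (95% interval 9.62 to 341), and Met had 96 and 1, a ratio of 28.4-fold (95% interval 4.97 to 1132). Neogenin, Neo1, was 13 and 32.6 against 4.01 and 5.93 CPM (-2.27 ± 0.59, adjusted p = 0.0312 in edgeR), a call that was lost by DESeq2 (0.142).

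Hematopoietic cells were compared with reticular-like cells as the class most distant from the stroma. Of 47 members tested 40 passed in edgeR, against 74.4% of all genes. Only 7 were higher in hematopoietic cells (37% of all genes) and 33 were higher in reticular-like cells (37.4% of all genes), and the median log2 fold change of hematopoietic over reticular-like cells was -2.12 for the members and -0.03 for all genes. All 6 ephrins, all 7 Eph receptors and both Slits that passed were higher in reticular-like cells. Efnb1 was 7.2 and 9.92 CPM in hematopoietic and 129 and 134 in reticular-like cells (-3.61 ± 0.18), Efna5 2.0 and 5.66 against 72 and 68.8 (-3.88 ± 0.40), Slit3 7.5 and 9.22 against 140.0 and 125 (-3.66 ± 0.14), and Sema5a 3.71 and 3.64 against 66.9 and 73.5 (-3.93 ± 0.14). The adjusted p of these 4 ran from 1.31e-05 (Sema5a) to 0.000413 (Efna5) in edgeR.

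Of the 7 that were higher in hematopoietic cells, 4 were class 4 semaphorins, membrane ligands with known roles on leukocytes. Sema4a, which binds plexins and Tim2 on immune cells, was 41.1 and 30.5 CPM against 1.84 and 3.08 (4.11 ± 0.28, adjusted p = 9.30e-05 in edgeR) and was found mainly in myeloid-like cells (68.6 and 60.8, against 0 and 1.93 in lymphoid-like cells). Sema4d, known as CD100, was 22.7 and 22.7 against 0.922 and 2.78 (3.80 ± 0.40, adjusted p = 0.000441) and was shared by myeloid-like (27.8 and 33.5) and lymphoid-like cells (32.6 and 29.98). Sema4b was highest in lymphoid-like cells (98.4 and 89.9), where 25.2% and 23.8% of cells held a UMI at equal depth against 2.24% and 2.22% of reticular-like cells. Sema4f had no UMI in reticular-like cells and 52 in hematopoietic cells, at least 30.5-fold more.

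Plxnc1 was 19.2 and 19.1 CPM in hematopoietic against 7.93 and 7.56 in reticular-like cells (1.63 ± 0.12, adjusted p = 0.000115 in edgeR). Ntn4, also higher in hematopoietic cells, was found in erythroid-like cells (10.5 and 8.67, free RNA 3.5 and 2.87), at levels above myeloid-like and lymphoid-like cells. Sema3g was the last of the 7, and its hematopoietic level of 0.817 and 2.25 CPM was below its free RNA level of 12.6 and 8.18, whose part in the difference was not tested. With the mouse as a block Unc5a lost its call (adjusted p = 0.0877 in edgeR). In 1 fit over all classes, the hematopoietic value was an equal-weight mean of myeloid-like, lymphoid-like and erythroid-like log levels, not a pooled level. For this different quantity Sema4a missed the threshold (log2 fold change 0.65, adjusted p = 0.316 in edgeR).

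The myeloid-like cells were not uniform. The smallest myeloid-like cluster (21 and 21 cells), led by C1qa, C1qb and C1qc, which macrophages express, held 233 and 195 CPM of Plxnb2, 127 and 133 of Plxnd1, 78.5 and 62 of Plxna1 and 201 and 174 of Sema6d. In the cluster led by Retnlg and Mmp8, genes of neutrophils, the same genes stood at 4.4 and 4.16, 8.8 and 8.85, 1.89 and 1.04 and 5.03 and 3.12. The neutrophil-gene cluster instead held the highest Sema4a (117 and 92.1), Sema4d (63.5 and 67.7) and Plxnc1 (53.4 and 59.3) of the 8 named hematopoietic clusters. An unnamed cluster of 6 and 10 cells led by Siglech, a plasmacytoid dendritic cell gene, was higher for Sema4d (151 and 146) and Plxnc1 (75.7 and 73), and held 272 and 155 of Sema4b. Sema4b was 165 and 171 in the lymphoid-like cluster with Ms4a1, the mature B cell gene, and 33.3 and 25.9 in that with Vpreb1, the pre-B cell gene. These are levels of clusters with no test.

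**Figure D5:**
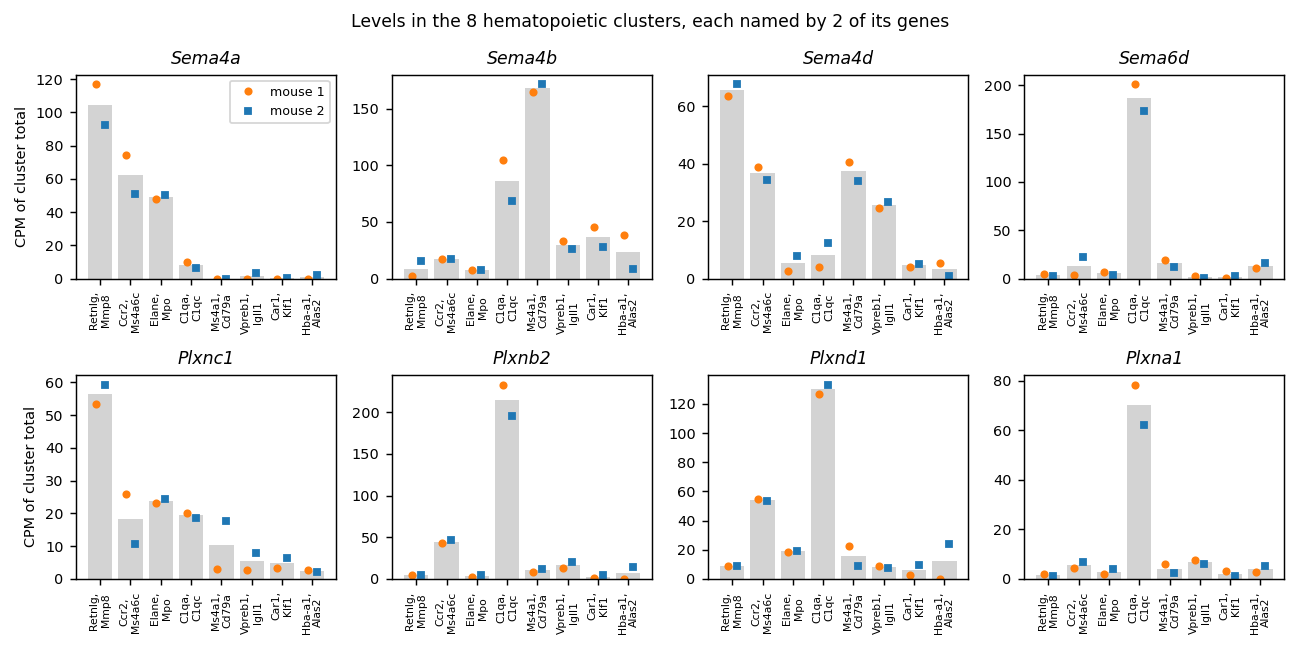
CPM of 8 members in the 8 named hematopoietic clusters, without the unnamed Siglech cluster, each named by 2 of its leading genes. Grey bars are means of 2 mice, orange circles Mouse #1 and blue squares Mouse #2. Among these 8 clusters Plxnb2, Plxnd1, Plxna1 and Sema6d peak in the C1qa cluster, Sema4a, Sema4d and Plxnc1 in the Retnlg cluster, and Sema4b in the Ms4a1 cluster.

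Of the pathway genes 28 of 34 passed between hematopoietic and reticular-like cells, against 74.4% of all genes. Of these, 9 were higher in hematopoietic cells (37% of all genes). Tiam1 was 22 and 17.1 against 0.246 and 0.133 CPM (7.07 ± 0.29), L1cam, a semaphorin co-receptor of the immunoglobulin family, 18 and 8.45 against 0.369 and 0.597 (4.99 ± 0.49), and Met 7.2 and 3.33 against 0.184 and 0.0331 (6.10 ± 0.72). Met missed the threshold in the fit over all classes, which averaged the log levels of the hematopoietic classes (log2 fold change 1.85, adjusted p = 0.999 in edgeR).

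Within the reticular-like class, cells above a tdTomato cutoff were compared with the other cells, to ask whether guidance genes differ with the level of this label. Positive cells exceeded the 99th percentile of the tdTomato level of hematopoietic cells of their mouse, which gave 481 positive and 722 negative cells in Mouse #1 and 966 and 1420 in Mouse #2. The cutoffs were 8.74 and 14.6 UMIs per 10000. At the 95th percentile (2.81 and 3.73 UMIs per 10000) 521 and 1244 cells were positive. Some cells called negative here therefore held tdTomato UMIs. No member of 44 tested passed in edgeR (0% of 12228 genes did), none passed by DESeq2, and 4 had an unadjusted p under 0.05 in edgeR. The median log2 fold change of positive over negative cells was -0.06 for the members and -0.01 for all genes. The class pairs come from the same animals, and with the mouse as a block those 4 members passed, against 4.24% of all genes. All 4 were lower in tdTomato-positive cells of both mice. Plxna2 was 141 and 107 CPM in positive and 192 and 165 in negative cells, Sema3a 4.29 and 5.19 against 10.5 and 7.26, Unc5b 11.7 and 8.98 against 16.9 and 12.8, and Efna5 63.2 and 62.5 against 77.9 and 73.1. In all 4 the values of positive cells in both mice lay below the values of negative cells in both mice. The blocked adjusted p-values were 3.90e-08 (Plxna2), 0.0205 (Sema3a), 0.0287 (Unc5b) and 0.0295 (Efna5) in edgeR. The blocked log2 fold changes were -0.51 ± 0.06, -0.77 ± 0.20, -0.49 ± 0.14 and -0.23 ± 0.06 in the same order. Without the block they were -0.50 ± 0.15, -0.83 ± 0.25, -0.51 ± 0.20 and -0.23 ± 0.08, each with an adjusted p of 0.989 in edgeR.

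Plxna2, Sema3a and Unc5b were also among the members higher in preosteoblast-like cells. The 8 reticular markers summed to 18127 and 15628 CPM in positive and 16899 and 14595 in negative cells and the 8 preosteoblast markers to 2358 and 3419 against 2472 and 3667. The 8 erythroid markers, none at 0 and led by Hba-a1, moved most of all lists, with 190.0 and 148 in positive and 751 and 1584 in negative cells. The 7 myeloid markers found were at 186 and 298 against 233 and 139, in opposite directions in the mice. For all these lists their part in the differences was not tested. Of the 31 pathway genes tested none passed without the block and 4 did with it (Flrt2, Dpysl2, Dpysl3 and Fyn), against 0% and 4.24% of all genes.

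The reticular-like class comprised 3 clusters, and Sema4c, Sema3a and Slit3 are given for them, named after their values were seen. Sema4c was 73 and 77.9 CPM in the largest cluster, led by Ccl2 and Tnfsf11, 67.1 and 41.2 in the cluster with high Fos and heat shock genes, and 36.6 and 31.5 in the cluster led by Bmp4 and Rspo2, so the last lay below the others in both mice. Sema3a ran the other way, with 8.49 and 5.05, 4.56 and 6.11 and 13.2 and 10.9, highest in the Bmp4 cluster. Slit3 was 146 and 128, 125 and 114 and 157 and 130.2 in the same order, within a narrower range. These levels are descriptions of clusters within the same mice.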

How the data were processed

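Cxcl12-GFP+ femur cells of 2 mice were profiled by droplet 3′ sequencing, and the deposited tables hold UMI counts per gene and barcode, which the authors made with Cell Ranger (version 3.0.0 in the matrix header) on mm10. The values are raw counts. Cells were barcodes that held 1000 or more genes and no more than 15% mitochondrial UMIs. Clusters came from scanpy 1.11.5 (2000 variable genes, 30 components, 15 neighbors, Leiden resolution 0.5) without the members, 42 pathway genes and reporters. A cluster was named where at least 3 markers were raised 1.5 times over the mean of the others. Shallow clusters with no marker of their class among their 10 leading genes stayed unnamed, which held for a pair of clusters with raised reticular markers. A rule that left a cycling cluster unnamed was set after seeing the data. The automatic doublet threshold of Scrublet called 6 and 3 cells and was not used.

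Counts were summed per mouse and class and tested across all genes with edgeR 4.0.16 in R 4.3.3 (quasi-likelihood, TMM, expression filter, Benjamini-Hochberg, threshold 0.05), with DESeq2 1.42.0 as an alternative, and the test was checked on simulated counts. Shares used cells thinned to 2000 UMIs, which left out 6 and 21 cells. Same-mouse deviations from class means correlated at 0.302, 0.198, 0.144, 0.0955, 0.233 and 0.514 in the 6 comparisons in the order reported, and the pairing itself comes from the animals. Members named were the called ones with the largest absolute log2 fold change, up to 25 in the first comparison and 12 in each other one, moving the same way in both mice, with up to 4 pathway genes each (1 is not reported here), and any member with at least 100 UMIs in both mice could be given by its levels. Fitted values of other members were chosen after their values were seen. Promoters and motif counts came from RefSeq. The members, gene lists and tests were chosen with earlier results of these data known.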

Additional observations from a re-analysis of the deposited data

How the results depend on the processing

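The number of members called stayed within 1.5 times its reported value under all alternatives but 3. Between arterial-type and sinusoidal-type cells 7 members passed without the low-count filter, where 56 were tested in place of 29. For tdTomato the count went from 0 to 1 without the filter and to 4 with the replicate block. With the mouse as a block the counts were 23, 23, 42, 21, 39 and 4, and the block changed no call of a member beyond those named in the report. Among alternative counts, the matching share of all genes is given only for tdTomato with the block (4.24%). Whether the other counts follow a change over all genes was not tested. Among the named genes, none of 741 values under the tested alternatives reversed its direction. Of these values, 29 kept their direction and lost the threshold, chiefly by DESeq2, in 1 fit over all classes and without the filter. The cause was not tested. The named genes were picked as called ones with the largest absolute log2 fold changes and the same direction in both mice. That choice itself favors few losses and reversals, so the 741 values do not measure the stability of other genes. For endothelial-like and hematopoietic cells the fit over all classes compared equal-weight means of log levels, not pooled levels. With 2 mice, leaving one out gives a log2 ratio of the other mouse with no test. The named genes were chosen to move the same way in both mice, so these ratios could not reverse. Of 88 named values 54 without Mouse #1 and 52 without Mouse #2 moved by less than the spread between the mice. That spread comes from the same 2 ratios, so these counts cannot measure stability. Precision was limited by the 28 sinusoidal-type cells of each mouse and by the 13 mature osteoblast-like cells of Mouse #1.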
